A study of Mus musculus with 15 samples.

Results

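The 3 D-type cyclins, Ccnd1, Ccnd2 and Ccnd3, and the 2 kinases they activate, Cdk4 and Cdk6, were followed across the cell classes of the mouse cerebellum and of a mouse medulloblastoma. They were chosen by name, and are 5 of the 27803 genes with counts. Drop-seq, a droplet method that tags each captured mRNA molecule with a unique molecular identifier (UMI), had been run on 15 mice in 3 groups of 5. The WT group was untreated wild-type C57BL/6 cerebellum at day 7 after birth (P7). Both other groups were medulloblastomas of Math1-Cre:SmoM2/EYFPloxP/loxP mice on C57BL/6, called M-Smo, collected at P15. In these mice Math1-Cre switches on SmoM2, an activated form of the Sonic hedgehog (SHH) transducer Smo, in the Math1 (Atoh1) lineage, which holds granule cells and other neurons of the rhombic lip, and tumor and host cells are mixed in each sample. The Vismodegib group received vismodegib, an inhibitor of Smo, at 75 mg per kg by intraperitoneal injection once daily for 3 days, and the Vehicle group received the solvent on the same days. Vehicle and WT therefore differ in age, genotype, solvent injections and capture device (glass for tumors, PDMS for WT). Human cells were also spiked into the tumor runs only, and all these differences cannot be told apart.

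D-type cyclins are the regulatory subunits that Cdk4 and Cdk6 need in order to act. The assembled kinases phosphorylate the pocket proteins Rb1, Rbl1 and Rbl2, which releases E2F factors and lets a cell pass from G1 into S phase. Granule neuron progenitors of the postnatal cerebellum divide in response to SHH, for which Ccnd1 is a known downstream gene, and loss of Ccnd2 in mice leaves fewer granule neurons.

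On GRCm38, Ccnd1 lies at chr7:144929931-144939925 and Ccnd2 at chr6:127125162-127152193, both on the minus strand. Ccnd3 lies at chr17:47505051-47599691, Cdk4 at chr10:127063534-127067920 and Cdk6 at chr5:3341485-3531008, all on the plus strand. The promoters of both kinase genes (RefSeq, GRCm38.p6, 250 bases before to 50 after the start, plus strand) are shown as those of the 2 partner kinases, whose levels are followed side by side below. The difference between the kinases was not tested. Capitals mark matches to the motifs searched.
Cdk4: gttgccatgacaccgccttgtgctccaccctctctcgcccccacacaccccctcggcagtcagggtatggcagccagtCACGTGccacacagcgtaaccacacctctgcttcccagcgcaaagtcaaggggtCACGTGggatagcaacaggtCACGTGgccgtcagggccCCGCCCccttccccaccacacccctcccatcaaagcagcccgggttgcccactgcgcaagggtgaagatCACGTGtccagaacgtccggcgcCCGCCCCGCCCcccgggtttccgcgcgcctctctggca
Cdk6: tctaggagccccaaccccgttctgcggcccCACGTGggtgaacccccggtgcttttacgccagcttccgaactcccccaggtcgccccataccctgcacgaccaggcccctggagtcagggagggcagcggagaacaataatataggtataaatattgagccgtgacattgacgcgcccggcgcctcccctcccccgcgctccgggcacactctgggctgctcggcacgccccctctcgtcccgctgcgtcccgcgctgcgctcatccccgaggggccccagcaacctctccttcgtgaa
The Cdk4 window is chr10:127063285-127063584, with 67.0% G and C, and the Cdk6 window is chr5:3343643-3343942, with 66.7%. The Cdk6 window is set on a RefSeq start inside the gene span given above, and its distances are from that start. The Cdk4 window holds the E-box CACGTG at 4 places, with first bases at -172, -118, -98 and -11 from the start. At least 4 such matches were found in 8 of 32851 mouse promoters (0.0244%), and at least 1 in 7.15%. The Cdk6 window holds 1 E-box, at -220. The SP1 motif GGGCGG, searched on both strands, is matched by its reverse complement in the Cdk4 window at -80, 13 and 18, the last 2 overlapping, and is present in 35.7% of promoters. No match to the E2F motifs TTTCGCGC and TTTGGCGC, the GLI motif GACCACCCA, the CRE TGACGTCA or CCAAT was found in either window on either strand. These are present in 0.323%, 0.514%, 0.253%, 1.79% and 37.4% of promoters, in that order. The promoter table held no entry for Ccnd1 or Ccnd2.

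Cells were sorted into classes by clustering and by marker genes, and the 5 members took no part in either. The granule lineage was split after the 4 nodes of the study. Node A-like cells were named by S to M phase markers such as Mki67. Node B-like cells were named by markers of G1 to early S phase progenitors, such as Atoh1 and Mcm genes. Node C-like cells were differentiating, and Node D-like cells carried late differentiation markers such as Rbfox3. Together the 4 classes are called CGNP-like, for cerebellar granule neuron progenitors and their progeny. The phase of single cells was not measured, and Node B-like tumor cells were mixed. Their cluster of 3711 cells had no class marker among its leading genes, which included Hist1h2ak, Esco2 and Neil3. At the highest cluster resolution run, a cluster led by these genes was named Node A-like. Genes held back from naming, though not from clustering, peaked in the class they mark, with Aqp4 at 5787 counts per 1000000 UMIs (CPM) in tumor astrocyte-like cells, Sox10 at 436 in tumor oligodendrocyte-like cells and C1qb at 6335 in tumor microglia-like cells. None of these genes marks a node-like class. Kept cells numbered 7224 in WT (805 to 2086 per animal), 18293 in Vehicle (1648 to 8103) and 12429 in Vismodegib (834 to 4162), with median depths per animal of 1083 to 1625, 1141 to 2597 and 1184 to 2368 UMIs. Over all kept cells there were 90197 UMIs of Ccnd2, 53065 of Cdk4, 36886 of Ccnd1, 8593 of Cdk6 and 3269 of Ccnd3. These are counts of captured 3′ ends, which are not scaled by transcript length and whose capture may differ between genes.

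Along the granule lineage the members did not share one course. In WT cerebellum Ccnd1, the cyclin named above as an SHH-responsive gene, was measured at 400 ± 98.5 CPM in Node B-like cells and 362 ± 59.5 in Node A-like cells (SD, n = 5), then at 80.8 ± 13.6 in the C-like and 49.1 ± 15.0 in the D-like class. The A and B ranges overlapped, and both stood apart from the C range. An unnamed WT cluster of 641 cells, nearest to Node A-like cells by its markers, had 462 ± 59.6 CPM of Ccnd1 and lies outside these classes. Ccnd2 was at 1493 ± 199, 1463 ± 121, 706 ± 83.8 and 308 ± 76.2 CPM in the B-, A-, C- and D-like classes, in that order, so that its steps between B, C and D were each larger than the spread between cerebella. Set against its own Node B-like level, the Node C-like level was 47.4% for Ccnd2 and 21.1% for Ccnd1 in WT. In Vehicle tumors the same percentages were 74.2% and 12.9%, and in Vismodegib tumors 52.0% and 7.21%. Atoh1, a progenitor transcription factor and 1 of the markers that name the Node B-like class, stood in Node C-like cells at 14.7%, 17.5% and 12.3% of its Node B-like level in WT, Vehicle and Vismodegib. Its ranges over tumors overlapped those of Ccnd1 in both tumor groups (11.03% to 25.9% for Atoh1 in Vehicle, with the highest Ccnd1 value at 14.7%), whereas those of Ccnd2 lay above it in all 3 groups.

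Within the granule lineage both kinases had their highest means in cycling classes. In WT their Node C-like levels were 58.2 ± 3.60% (Cdk4) and 58.6 ± 27.5% (Cdk6) of those in Node B-like cells. The Cdk6 percentage ran from 31.4% to 98.25% over animals, and its WT Node B- and C-like ranges in CPM overlapped. Outside it, WT GABAergic progenitor-like cells had 937 ± 61.4 CPM of Cdk4, the highest WT mean. Cdk4, the kinase with the most UMIs in every class of the lineage, was at 832 ± 115, 486 ± 89.9 and 228 ± 64.2 CPM in WT Node B-, C- and D-like cells. Cdk6 was at 42.5 ± 12.4, 22.7 ± 6.51 and 18.4 ± 10.7 CPM in the same classes. Ccnd3, a D cyclin known for its role in blood cells, was the least counted member of the lineage, at 12.4 ± 7.06 CPM in WT Node B-like cells on 27 UMIs in all. At that depth the order of the WT nodes could not be read for Ccnd3, since the ranges of Node A-, B-, C- and D-like cells overlapped.

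**Figure D1:**
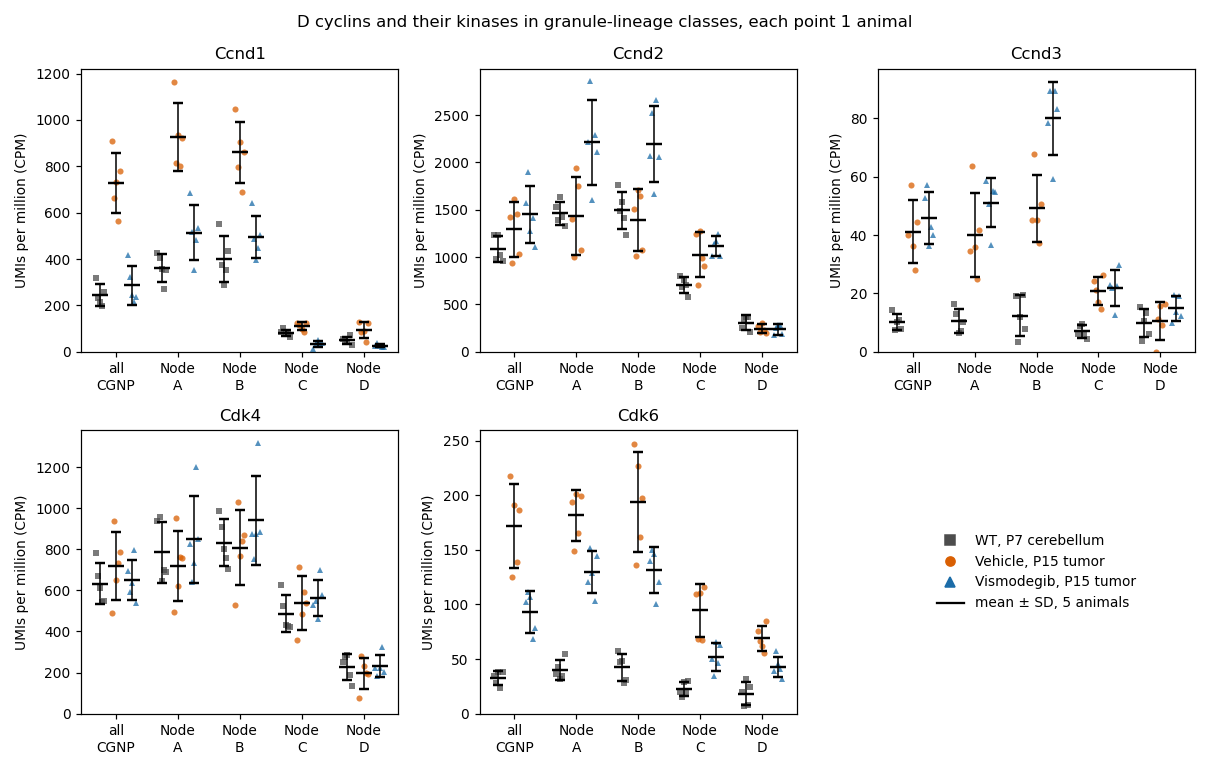
Level of each member in CPM (y axis, linear, starting at 0) in all CGNP-like cells and in each node-like class (x axis), with 1 point per animal and the mean ± SD of 5 animals per group. Vehicle Ccnd1 points of Node A- and B-like cells lie between 690 and 1164 CPM, above every WT and Vismodegib point of those classes, whereas Ccnd2 points of Vismodegib tumors reach 2858.

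Ccnd1 and Cdk6 were lower in the granule lineage of vismodegib-treated tumors taken as a whole. No difference was called for Ccnd2, Ccnd3 and Cdk4 at that level. The node mix moved with treatment, and its part in these pooled values was not tested. Node B-like cells were 55.45% of kept cells in Vehicle and 28.3% in Vismodegib, and Node D-like cells 5.43% and 29.1%. In the main edgeR fits of single nodes, given below, Cdk6 was not called. Ccnd1 in CGNP-like cells was at 907, 664, 732, 563 and 778 CPM in Vehicle tumors 1 to 5, and at 418, 323, 247, 213 and 237 CPM in Vismodegib tumors 1 to 5. Every treated tumor lay below every vehicle tumor. The edgeR log2 fold change was -1.34 (SE 0.18, adjusted p = 0.000445). Cdk6 was at 218, 125, 191, 139 and 186 CPM in Vehicle and at 101.9, 111, 107, 68.0 and 78.4 CPM in Vismodegib. These groups did not overlap either, and the log2 fold change was -0.88 (SE 0.17, adjusted p = 0.00423). With 12.7% of 12383 genes called in this comparison, 2 of 5 members were called, both lower. Over all kept cells of the tumors, where 13.9% of genes were called, the same members were called, with log2 fold changes of -1.47 (SE 0.17) for Ccnd1 and -1.0001 (SE 0.18) for Cdk6.

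The values of the other 3 members overlapped between the treatments. Ccnd2 in CGNP-like cells was at 1427, 935, 1609, 1460 and 1038 CPM in Vehicle and at 1574, 1899, 1277, 1410 and 1109 CPM in Vismodegib, a log2 fold change of 0.17 (SE 0.18, edgeR adjusted p = 0.617). Cdk4 ranged from 488 to 935 CPM in Vehicle and from 538 to 795 CPM in Vismodegib, with a log2 fold change of -0.14 (SE 0.18, edgeR adjusted p = 0.678). Ccnd3 ranged from 28.2 to 57.1 CPM and from 36.2 to 57.3 CPM. The SE leaves room in either direction for each of them.

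Tumors carry serial numbers in their titles, and the order of processing behind them is not stated. In CGNP-like cells of the 3 and 3 tumors with lower numbers Ccnd1 averaged 767 CPM in Vehicle and 329 in Vismodegib, and in the 2 and 2 with higher numbers 671 and 225. Cdk6 averaged 178 and 107 CPM among the lower numbers, and 162 and 73.2 among the higher. The groups did not overlap over all tumors, so both genes had to be lower in every treated tumor within each range of numbers. The split is therefore no further test.

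Markers of other classes moved with treatment in the same cells. The summed level of the 10 neuron-like markers, all of them seen, was 1328 CPM (1004 to 1703) in Vehicle CGNP-like cells and 2095 (1791 to 2461) in Vismodegib, with no overlap. In each single node this list overlapped between treatments, with 711 to 1155 and 699 to 1275 CPM in Node A-like cells. In Node D-like cells it was higher, at 2993 to 3807 and 2846 to 4235 CPM. The node mix moved with treatment, and the part of the mix was not tested. The neuron-like cluster itself was led by Gabra6 and Cbln3. Atoh1, Barhl1, Nhlh1 and Neurod1, genes of the granule lineage, summed in it to 166% of their CGNP-like level in Vehicle and 115% in Vismodegib. Whether its cells lie outside the granule lineage was not tested. The 8 choroid or ependymal markers summed to 36.5 CPM (9.27 to 99.4) and 324 (27.6 to 1124), and the 8 GABAergic progenitor markers to 101.5 (77.3 to 131) and 34.8 (25.7 to 43.2). The summed markers of astrocytes, oligodendrocytes, microglia, endothelial cells, vascular fibroblasts, Purkinje cells, GABAergic interneurons and erythroid cells overlapped between treatments. Single nodes differed from this and are given with their results. The part of these in the member results was not tested.

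In the main edgeR fit of each single node Ccnd1 was called lower and Ccnd2 was not called, and the difference between cyclins was not tested. In Node A-like cells, where 2.01% of 9019 genes were called, Ccnd1 was called lower, from 1164, 815, 937, 800 and 921 CPM in Vehicle to 683, 515, 354, 481 and 532 CPM in Vismodegib. The groups were apart, and the log2 fold change was -0.86 (SE 0.16, edgeR adjusted p = 0.00652). Summed markers of other cell types also moved apart here, those of GABAergic interneurons from 344 to 476 CPM in Vehicle to 491 to 600 in Vismodegib, and those of GABAergic progenitors (4 of 8 at 0 in Vehicle) from 92.7 to 173 to 40.9 to 82.1. Their part was not tested. Ccnd2 in the same cells was at 1400, 999, 1943, 1754 and 1071 CPM in Vehicle and at 2213, 2858, 1602, 2294 and 2107 CPM in Vismodegib. Here 4 treated tumors lay above all vehicle tumors and Vismodegib tumor 3 lay among them. The log2 fold change of 0.62 (SE 0.20) was not called (edgeR adjusted p = 0.153). Cdk6 in Node A-like cells ran from 149 to 201 CPM in Vehicle and from 103 to 152 in Vismodegib (-0.50, SE 0.15, edgeR adjusted p = 0.134). Ccnd3 (0.32, edgeR adjusted p = 0.701) and Cdk4 (0.23, adjusted p = 0.757) were not called there either.

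In Node B-like cells 3.29% of 10668 genes were called, and among the members Ccnd1 was called lower and Ccnd3 higher. The class joins 5 tumor clusters whose mix moved, from 4321 of 10472 cells in Vehicle to 713 of 3107 in Vismodegib for the cluster with the most Ccnd1 (1001 and 638 CPM), and from 270 to 352 cells for the one with the least (319 and 244 CPM). This shift was not separated from the values that follow. Ccnd1 went from 1047, 798, 906, 690 and 862 CPM in Vehicle to 641, 488, 397, 448 and 502 CPM in Vismodegib, a log2 fold change of -0.78 (SE 0.14, edgeR adjusted p = 0.00777) with no overlap. Ccnd3 was at 45.3, 67.8, 45.0, 37.1 and 50.5 CPM in Vehicle and at 78.6, 89.5, 59.2, 89.4 and 83.3 CPM in Vismodegib. Vehicle tumor 2 lay above Vismodegib tumor 3, and all other treated tumors lay above all vehicle tumors. The log2 fold change of Ccnd3 was 0.72 (SE 0.18, edgeR adjusted p = 0.0360). In these cells the summed Purkinje markers lay at 139 to 178 CPM in Vehicle and 215 to 361 in Vismodegib, and the GABAergic progenitor markers at 88.3 to 144 and 24.2 to 56.2, each without overlap, and their part was not tested. The Ccnd3 call rested on the full set of tumors: it was lost when any tumor other than Vehicle 2 or Vismodegib 3 was left out, with log2 fold changes of 0.64 to 0.74 and adjusted p-values of 0.0626 to 0.105.

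Ccnd2 in Node B-like cells was at 1513, 1012, 1710, 1650 and 1077 CPM in Vehicle and at 2065, 2527, 1668, 2659 and 2056 CPM in Vismodegib. Only Vismodegib tumor 3 lay within the vehicle range. The log2 fold change of 0.67 (SE 0.19) missed the threshold in edgeR (adjusted p = 0.0698). It passed in DESeq2 (adjusted p = 0.0143) and in edgeR with lower or higher serial number as a covariate (adjusted p = 0.0409). Cdk6 in Node B-like cells had a log2 fold change of -0.55 (SE 0.17, edgeR adjusted p = 0.104), and Cdk4 one of 0.24 (edgeR adjusted p = 0.658). Cdk6 was called in DESeq2, and both Ccnd2 and Cdk6 were called with the sets of tumors as a covariate.

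Ccnd1 was also lower in differentiating cells, where its level was already small. In Vehicle its Node D-like mean of 93.1 CPM was near those of neuron-like (95.1) and vascular fibroblast-like cells (91.2). In Vismodegib the Node C- and D-like means were 33.1 and 25.6 CPM, beside 94.3 in neuron-like and 43.3 in vascular fibroblast-like cells. RNA carried over from progenitors was not separated from the values that follow. Ccnd1 in Node C-like cells was at 126, 117, 99.7, 83.5 and 126 CPM in Vehicle and at 11.5, 34.5, 50.2, 32.0 and 37.3 CPM in Vismodegib, apart in every tumor. Its log2 fold change was -1.71 (SE 0.24, edgeR adjusted p = 0.00256). It was the called member of a comparison in which 0.595% of 8401 genes were called. Cdk6 in Node C-like cells was at 109, 68.8, 111, 67.7 and 116 CPM and at 50.4, 34.5, 65.2, 46.4 and 62.8 CPM. The groups did not overlap, yet the log2 fold change of -0.85 (SE 0.22) was not called by edgeR (adjusted p = 0.111). It was called in edgeR without the filter on low counts (adjusted p = 0.0136) and in DESeq2 (0.0387). It was also called in edgeR with lower or higher serial number as a covariate (0.0481). The call was also made with same-numbered tumors as a block and with the sets of tumors as a covariate. Ccnd2 was at 1025 ± 238 and 1115 ± 104 CPM in these cells, with overlapping tumors. Ccnd3 (0.13, edgeR adjusted p = 0.922) and Cdk4 (0.08, adjusted p = 0.933) were not called. The Ccnd2 means join 2 clusters whose mix moved, since the cluster with more Ccnd2 held 1681 of 3038 Node C-like cells in Vehicle and 674 of 2243 in Vismodegib. Mean Ccnd2 was 1421 ± 442 and 1891 ± 235 CPM in that cluster, and 710 ± 163 and 851 ± 145 in the other. Ccnd1 was at 140 ± 12.5 and 58.2 ± 25.7 CPM in the first and at 82.3 ± 11.03 and 24.9 ± 13.6 in the other. The summed GABAergic progenitor markers of Node C-like cells lay at 27.8 to 55.2 CPM in Vehicle and 4.71 to 17.6 in Vismodegib, and their part was not tested.

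In Node D-like cells edgeR called 3 of 6014 genes (0.0499%), all lower, and Ccnd1 was among them. It was at 126, 83.1, 89.5, 42.9 and 124 CPM in Vehicle, on 105 UMIs in 748 cells, and at 26.2, 37.5, 22.8, 20.5 and 20.8 CPM in Vismodegib. Its log2 fold change was -1.87 (SE 0.29, edgeR adjusted p = 0.00948). Without Vehicle tumor 5 the adjusted p was 0.0739 and without Vismodegib tumor 4 it was 0.0579, with log2 fold changes of -1.71 and -1.79. Cdk6 in Node D-like cells ran from 55.2 to 84.5 CPM in Vehicle and from 31.4 to 57.1 in Vismodegib (-0.70, SE 0.24, edgeR adjusted p = 0.632). Ccnd2 (-0.02, edgeR adjusted p = 0.999) and Cdk4 (0.23, adjusted p = 0.976) were not called, and Ccnd3 was not tested. Node D-like cells also join 2 clusters whose mix moved, the smaller in Vehicle holding 112 of 748 cells there and 1994 of 4103 in Vismodegib. Mean Ccnd1 was 90.1 ± 38.3 and 27.8 ± 8.44 CPM in the other cluster, and 71.6 ± 27.1 (4 tumors) and 24.2 ± 5.65 in this one. The summed vascular fibroblast markers of these cells lay at 3.89 to 29.2 CPM in Vehicle (4 of 10 at 0) and 33.0 to 63.9 in Vismodegib, and their part was not tested.

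**Figure D2:**
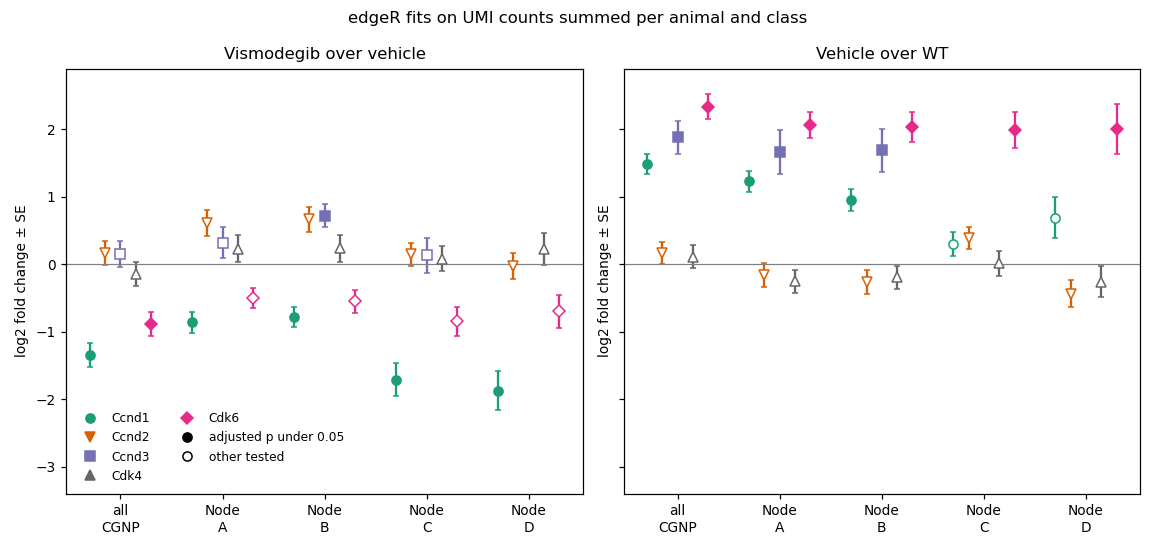
Log2 fold changes ± SE (y axis) from the edgeR fits for the 5 members in all CGNP-like cells and in each node-like class (x axis), Vismodegib over Vehicle on the left and Vehicle over WT on the right. Filled symbols passed an adjusted p of 0.05. Ccnd1 lies between -0.78 and -1.87 and is filled in all 5 positions on the left, and Cdk6 lies between 1.98 and 2.34 and is filled in all 5 on the right. Members that were not tested have no symbol.

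Treatment differences of 2 cyclins depended on the node. In 1 fit over the 4 node-like classes with the tumor as a block, the Ccnd1 difference in Node C-like cells was lower than that in Node A-like cells by a log2 of -0.88 (SE 0.17, edgeR adjusted p = 0.000499), and that of Ccnd2 by -0.50 (SE 0.10, adjusted p = 0.000731). The shift between the 2 Node C-like clusters given above lies within this contrast and was not separated from it, and the same holds for the Node D-like clusters in the next. Carried-over RNA was not separated from either contrast. For Node C-like against Node A-like cells 2.73% of 10751 genes were called. For Node D-like against Node A-like cells, where 2.78% were called, the values were -1.03 (SE 0.22, edgeR adjusted p = 0.00150) for Ccnd1 and -0.58 (SE 0.15, adjusted p = 0.0168) for Ccnd2. Between Node B- and A-like cells, with 0.456% of genes called, no member was called and the Ccnd3 value was 0.40 (edgeR adjusted p = 0.499). No contrast called Ccnd3, Cdk4 or Cdk6. Without Vehicle tumor 5 the Node D-like values were -0.86 for Ccnd1 (adjusted p = 0.0589) and -0.57 for Ccnd2 (0.0562), no longer called. The Ccnd2 call in Node D-like cells was also lost without Vehicle 2 or Vismodegib 1, 2 or 5 (adjusted p = 0.0535 to 0.114).

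The make-up of the tumors moved with treatment, so each tumor's class levels were also weighted by the mean share of UMIs that each class held in the Vehicle tumors (53.1% for Node B-like and 20.8% for Node A-like cells). Counted as cells, Node B-like cells were 55.5% of kept cells in Vehicle and 28.3% in Vismodegib, and Node D-like cells 5.43% and 29.1%. As measured over all kept cells, Ccnd1 was at 708 ± 113 CPM in Vehicle and 263 ± 69.8 in Vismodegib, and at the fixed make-up at 708 ± 98.1 and 389 ± 69.0. Both log2 ratios, -1.43 and -0.86, had p = 0.00794, the smallest a 2-sided exact permutation test of 5 against 5 allows. Ccnd2 behaved otherwise. Its means as measured were 1220 and 1283 CPM (log2 ratio 0.07, exact permutation p = 0.746), and at the fixed make-up 1221 ± 293 and 1818 ± 304 CPM (0.57, p = 0.0238).

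Cdk6 went from a log2 ratio of -0.96 as measured (162 and 83.1 CPM, exact permutation p = 0.00794) to -0.58 at the fixed make-up (161 and 108 CPM, p = 0.0159). Ccnd3 went from 0.11 (p = 0.540) to 0.50 (42.9 and 60.6 CPM, exact permutation p = 0.0238). That Ccnd3 difference of 17.6 CPM ranged from 15.5 to 21.6 when 1 tumor was left out, and it no longer passed without any 1 of Vehicle 1, 3 and 4 and Vismodegib 1, 2, 4 and 5. Cdk4 differed by less than its spread at either make-up (log2 ratios -0.22 and 0.20, exact permutation p = 0.262 and 0.373). These p-values are unadjusted, for 5 members tested. In whole-tumor sums fewer cells of a class and less RNA per cell cannot be told apart. The single clusters within a node also differed in level: in the Node B-like clusters Ccnd1 ran from 319 to 1001 CPM in Vehicle and from 244 to 638 in Vismodegib, and Ccnd2 from 1205 to 1783 and from 1876 to 2523.

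**Figure D3:**
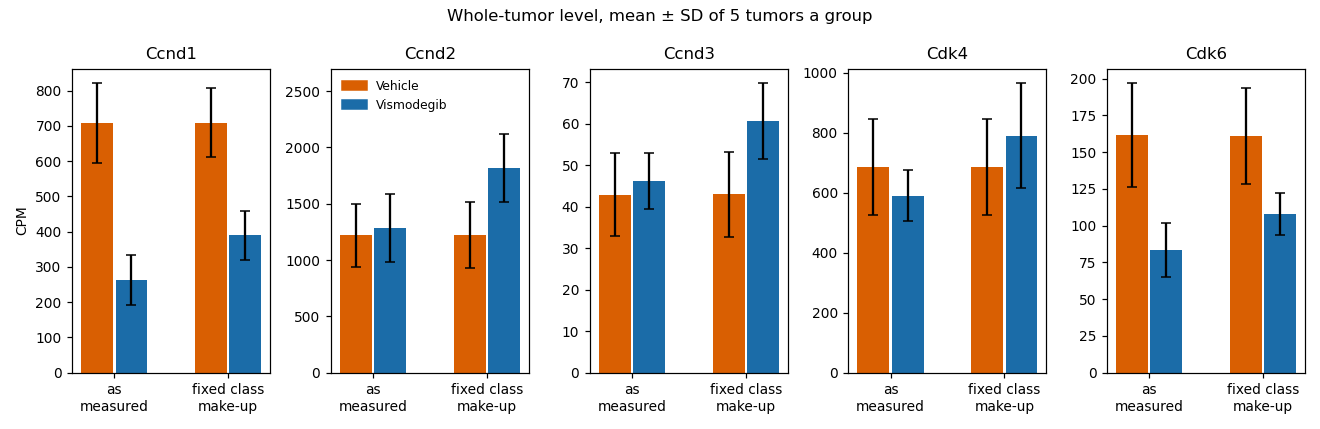
Mean level ± SD in CPM (y axis, from 0) of each member over all kept cells of 5 Vehicle and 5 Vismodegib tumors, as measured and at the mean class make-up by UMIs of the Vehicle tumors (x axis). The Ccnd1 bars are 708 and 263 CPM as measured and 708 and 389 CPM at the fixed make-up, and the Ccnd2 bars 1220 and 1283, then 1221 and 1818.

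Within the D cyclin pool, shares do not depend on library scaling. Of all D cyclin UMIs in CGNP-like cells, Ccnd1 held 18.3 ± 2.69% in WT, 35.7 ± 6.23% in Vehicle and 16.1 ± 2.94% in Vismodegib (SD, n = 5 each). Vehicle tumors ran from 27.5% to 41.8% and Vismodegib tumors from 12.8% to 20.4%. Ccnd2 held most of the rest, at 81.0 ± 2.67%, 62.2 ± 6.88% and 81.4 ± 3.00%, and Ccnd3 held 0.747%, 2.09% and 2.58%. The same order was seen in each cycling class: Ccnd1 held 19.7%, 39.3% and 18.5% in Node A-like cells and 20.97%, 37.8% and 18.1% in Node B-like cells. Its shares of the Node C-like pool were 10.2%, 9.91% and 2.80%.

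The summed D cyclins of cycling cells were not lower under treatment. In Node A-like cells they averaged 1835 ± 145 CPM in WT, 2401 ± 431 in Vehicle and 2779 ± 518 in Vismodegib, and in Node B-like cells 1906, 2302 and 2770, with tumors of the 2 treatments overlapping. Over CGNP-like cells the sums were 1341 ± 161, 2064 ± 317 and 1787 ± 366 CPM. Of the summed kinase UMIs Cdk4 held 95.04 ± 1.16% in WT, 79.9 ± 7.24% in Vehicle and 87.3 ± 3.01% in Vismodegib. All these shares and sums are descriptions, and no test was made.

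**Figure D4:**
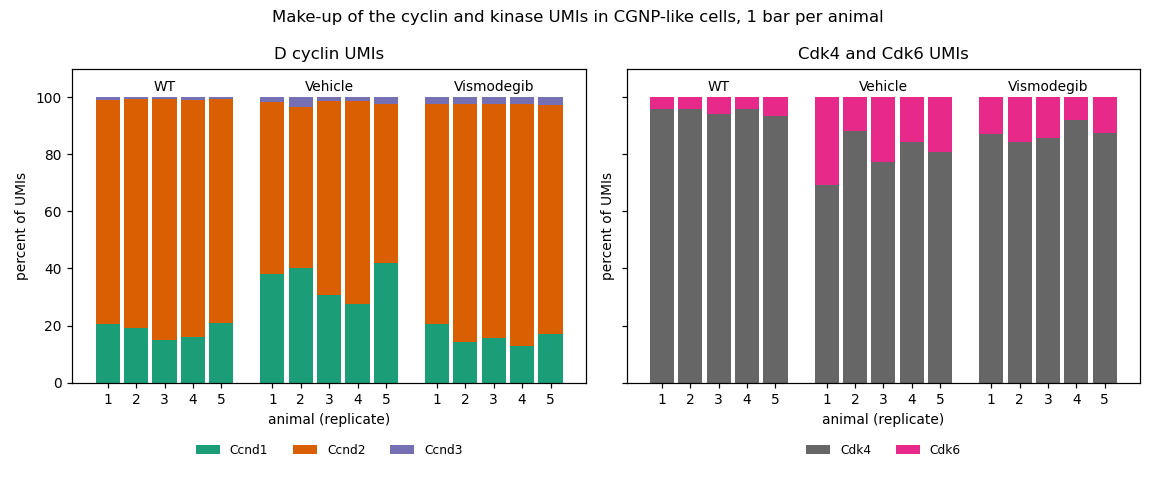
Percent of D cyclin UMIs (left) and of Cdk4 plus Cdk6 UMIs (right) held by each gene in CGNP-like cells (y axis), 1 bar per animal by group and replicate (x axis). The Ccnd1 part is 27.5% to 41.8% of the bar in Vehicle and 12.8% to 20.4% in Vismodegib.

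Shares of cells with a UMI were compared at 1 fixed depth. With each CGNP-like cell thinned to 500 UMIs, a Ccnd1 UMI was seen in 8.97% of WT, 24.6% of Vehicle and 9.10% of Vismodegib cells on average over animals. The node mix differed between these groups, and its part was not tested. Node B-like cells were 19.25%, 55.45% and 28.3% of kept cells, and Node D-like cells 13.8%, 5.43% and 29.1%. Unthinned, at median depths of 1241, 1840 and 1994 UMIs, the shares were 22.9%, 52.9% and 24.1%. WT Purkinje-like cells, neurons that have left the cell cycle, gave 0.843% after thinning. Both Ccnd1 differences, Vismodegib from Vehicle and Vehicle from WT, had an exact permutation p of 0.00794. A Cdk6 UMI was seen in 1.42%, 7.62% and 3.88% of thinned cells, with the same p for both differences, and in 0.428% of Purkinje-like cells.

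Ccnd2 was seen in 33.1%, 40.5% and 38.0% of thinned CGNP-like cells, with exact permutation p = 0.0635 for Vehicle from WT and 0.587 for Vismodegib from Vehicle. Purkinje-like cells gave 7.31%. Cdk4 was seen in 23.5%, 28.5% and 23.9% (p = 0.111 and 0.167, exact permutation), with 5.02% in Purkinje-like cells. Ccnd3 was seen in 0.507%, 1.91% and 1.94%, apart between WT and Vehicle (exact permutation p = 0.00794), with p = 0.913 between treatments, and in 0.0711% of Purkinje-like cells. All these CGNP-like shares pool nodes whose mix moved with treatment, and the part of the mix was not tested. Cells with neither Ccnd2 nor Cdk4 were 38.0%, 37.2%, 52.0% and 82.1% of thinned Vehicle Node A-, B-, C- and D-like cells. In Vismodegib they were 26.0%, 24.2%, 50.4% and 81.0%. Purkinje-like cells had a median depth of 2873 UMIs and are a background for the WT libraries only. The neuron-like cells of the tumors, given next, were not shown to lie outside the granule lineage. In the tumors, neuron-like cells (92 in Vehicle and 240 in Vismodegib, median depths 1096 and 1680 UMIs) gave 4.11% and 3.71% for Ccnd1, 3.80% and 7.17% for Ccnd2, 0.774% and 0.284% for Ccnd3, 6.72% and 6.58% for Cdk4 and 0.604% and 0.196% for Cdk6, each under the CGNP-like share of its group.

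In every node-like class and group, Ccnd1 and Ccnd2 were seen in the same thinned cells at or above the product of their shares. These values were 7.85% and 6.94% in WT Node A-like cells. They were 1.74% and 1.48% in Vehicle Node C-like cells, and 0.552% and 0.401% in Vehicle Node D-like cells. The excess was not tested. In Vehicle Node B-like cells Ccnd1 and Ccnd2 were seen together in 13.97% of cells, and the product of their single shares was 13.96%. In Vismodegib Node B-like cells these values were 12.7% and 12.2%, and in Vehicle Node A-like cells 16.0% and 15.2%. Cells with Ccnd2 and without Ccnd1 made up 30.9% of Vehicle and 49.8% of Vismodegib Node B-like cells, and cells with Ccnd1 and without Ccnd2 made up 17.2% and 6.75%. At 500 UMIs per cell, a transcript that was not seen may still have been present.

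Against the WT lineage, the vehicle-treated tumors had more Ccnd1, Ccnd3 and Cdk6, while no difference was called for Ccnd2 and Cdk4. In CGNP-like cells 43.9% of 12407 genes were called in this comparison, and 3 of 5 members, all higher. The node mix differed too: Node B-like cells were 19.25% of kept cells in WT and 55.45% in Vehicle, and Node D-like cells 13.8% and 5.43%. The unnamed WT cluster given above lay outside these cells. The part of the mix and of that cluster was not tested. Ccnd1 was at 320, 232, 217, 198 and 259 CPM in WT animals 1 to 5, all under the Vehicle range of 563 to 907, with a log2 fold change of 1.48 (SE 0.15, edgeR adjusted p = 2.64e-06). Cdk6 was at 34.0, 28.1, 37.8, 23.9 and 38.5 CPM in WT, against 125 to 218 in Vehicle, a log2 fold change of 2.34 (SE 0.19, edgeR adjusted p = 3.19e-07). It was the largest of the 5. Ccnd3 was at 14.3, 7.43, 10.1, 11.1 and 7.70 CPM in WT against 28.2 to 57.1 in Vehicle (1.88, SE 0.24, edgeR adjusted p = 2.18e-05). The summed neuron-like markers of these cells also stood apart, at 685 to 942 CPM in WT and 1004 to 1703 in Vehicle, and their part was not tested. The log2 fold changes of Ccnd2 (0.17, edgeR adjusted p = 0.449) and Cdk4 (0.11, adjusted p = 0.634) went with overlapping animals.

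Node by node, Cdk6 was higher in Vehicle in all 4 classes, with edgeR log2 fold changes of 2.06, 2.03, 1.98 and 2.00 in Node A-, B-, C- and D-like cells, at adjusted p-values of 7.48e-08, 2.19e-06, 1.23e-05 and 0.000171. Ccnd1 was higher by 1.23 in Node A-like and 0.95 in Node B-like cells (edgeR adjusted p = 2.97e-06 and 0.000201). It was not called in Node C-like cells (0.30, adjusted p = 0.227), where the WT animals ran from 64.9 to 101 CPM and the tumors from 83.5 to 126, nor in Node D-like cells (0.69, adjusted p = 0.0967). Ccnd3 was higher by 1.66 and 1.69 in Node A- and B-like cells (edgeR adjusted p = 0.000480 and 0.000495) and was not tested in Node C- and D-like cells, where WT held 14 UMIs in each. Ccnd2 (-0.16, -0.26, 0.39 and -0.44) and Cdk4 (-0.25, -0.19, 0.01 and -0.26) were not called in the main edgeR fit of any of the 4 classes. Genes called made up 33.9%, 32.4%, 29.9% and 26.7% in Node A-, B-, C- and D-like cells, and members called were 3, 3, 1 and 1. Summed neuron-like markers stood higher in Vehicle without overlap in all 4 classes. In Node A-like cells those of oligodendrocytes (256 to 357 CPM in WT, 428 to 813 in Vehicle), Purkinje cells (76.1 to 108 and 120 to 178) and GABAergic interneurons (492 to 657 and 344 to 476) were apart as well. In Node C-like cells the lists of oligodendrocytes and GABAergic interneurons stood higher and those of endothelial cells, vascular fibroblasts and Purkinje cells lower in Vehicle, and in Node D-like cells those of vascular fibroblasts, GABAergic progenitors and erythroid cells lower, all without overlap. The part of these was not tested. The Vehicle tumors serve in both sets of comparisons, so the 2 are not independent. The Vismodegib means over CGNP-like cells, beside those of WT, were 288 and 245 CPM for Ccnd1, 1454 and 1086 for Ccnd2, 45.8 and 10.1 for Ccnd3, 650 and 631 for Cdk4, and 93.3 and 32.5 for Cdk6.

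Outside the granule lineage the cyclins were highest in different WT classes, while Ccnd1 and Ccnd3 had their highest Vehicle means in the same class. Ccnd2 was highest in WT GABAergic progenitor-like cells, precursors of cerebellar interneurons, at 2280 ± 183 CPM (2030 to 2526), above every other WT class, with Ccnd1 at 37.4 ± 16.3 CPM there. Their differentiating relatives, the GABAergic interneuron-like cells, had 474 ± 92.0 CPM of Ccnd2 and 51.9 ± 26.0 of Ccnd1. Purkinje-like cells had 86.2 CPM of Ccnd2, 18.0 of Ccnd1 and 101.9 of Cdk4. Among WT classes Ccnd3 had its highest mean in vascular fibroblast-like cells, at 110 ± 23.1 CPM, and its range overlapped that of oligodendrocyte-like cells. In Vehicle tumors its highest mean was in oligodendrocyte-like cells, at 115 ± 42.7 CPM, and that in vascular fibroblast-like cells was 33.4 ± 35.1. Oligodendrocyte-like cells of Vehicle tumors had 1109 ± 282 CPM of Ccnd1, and those of WT 305 ± 151. The Ccnd1 ranges of Vehicle oligodendrocyte-, Node A- and Node B-like cells overlapped.

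These levels are given beside a measure of RNA that could be carried over from granule cells. Atoh1, Barhl1, Nhlh1 and Neurod1, genes of the granule lineage, summed in another class to a percentage of their CGNP-like level, and the same percentage of a member's CGNP-like level is what carry-over in that proportion would give, where the class itself does not express the 4 genes. It is no such measure in neuron-like cells, where the 4 genes reached 166% in Vehicle, or 1195 CPM of Ccnd1 against 95.1 measured, and 115% in Vismodegib, or 1699 CPM of Ccnd2 against 152 measured. In Vehicle oligodendrocyte-like cells this was 13.8%, or 98.7 CPM of Ccnd1 against the 1109 measured. For Ccnd2 in GABAergic progenitor-like cells it was 238 of 2280 CPM, and for Ccnd1 in GABAergic interneuron-like cells 54.9 against 51.9. In microglia-like cells of Vehicle it was 204 of 218 CPM of Ccnd1, and in astrocyte-like cells 209 of 277.

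**Figure D5:**
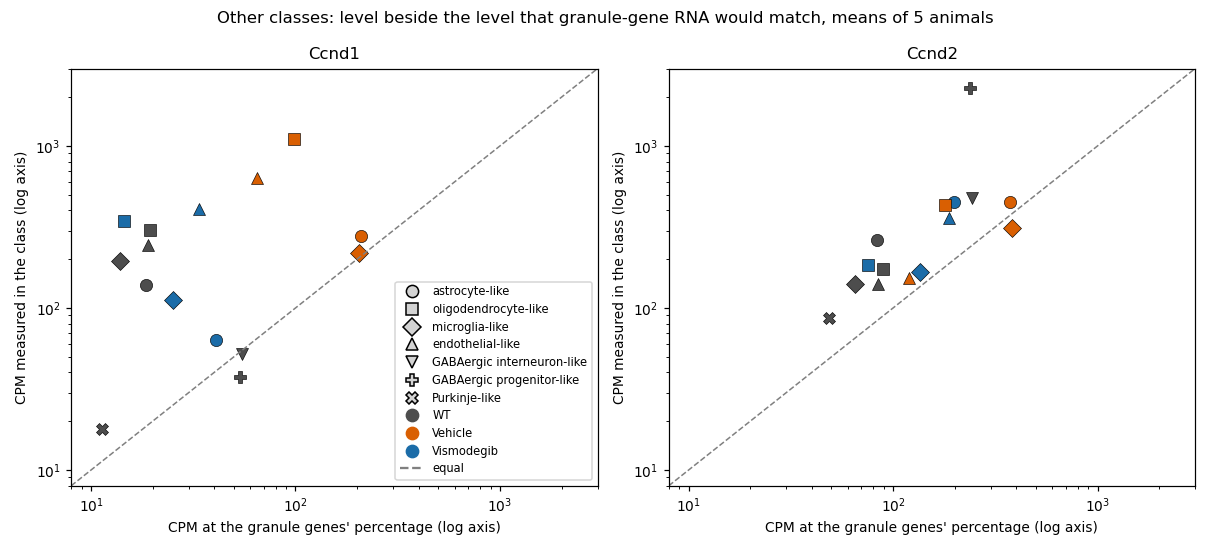
Measured mean level of Ccnd1 (left) and Ccnd2 (right) in 7 classes outside the granule lineage (y axis, CPM, log scale) against the level at the percentage that the 4 granule genes reach there (x axis, CPM, log scale), each symbol 1 class and group of 5 animals. Vehicle oligodendrocyte-like cells (1109 against 98.7 CPM of Ccnd1) lie far above the dashed line of equality, and Vehicle microglia-like cells (218 against 204) lie next to it.

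Ccnd1 was called lower under vismodegib in oligodendrocyte-like and astrocyte-like cells too. Oligodendrocyte-like cells had 630, 1267, 1344, 1195 and 1107 CPM of Ccnd1 in Vehicle and 157, 529, 255, 520 and 259 CPM in Vismodegib. The groups were apart, and the log2 fold change was -1.59 (SE 0.30, edgeR adjusted p = 0.00317), with 5.18% of 2741 genes called. Carry-over at the granule genes' percentage would give 98.7 and 14.4 CPM in the 2 groups. The make-up of the class moved too: OPC-like cells, oligodendrocyte precursors found by clustering the class again, were 274 of its 417 cells in Vehicle and 50 of 154 in Vismodegib. Tumor clusters of 189 and 34 cells of the class, over both treatments, had no subtype name. Within OPC-like cells Ccnd1 was at 1627 ± 440 CPM (979 to 2205) in Vehicle and at 1123 ± 667 (363 to 1987) in the 4 Vismodegib tumors with at least 5 such cells, with overlapping tumors. A change within 1 cell type and a change of mix cannot be told apart in the class difference. Ccnd2 in the same cells was at 307, 271, 766, 366 and 457 CPM and at 62.9, 353, 85.04, 345 and 71.9 CPM. It was not called (-1.18, SE 0.41, edgeR adjusted p = 0.116) and was called when Vismodegib tumor 4 was left out (-1.83). In OPC-like cells Ccnd2 was at 582 ± 197 CPM (360 to 881) and 491 ± 495 (97.7 to 1214), again overlapping. Cdk4 was not called in the class (0.39, edgeR adjusted p = 0.547), and Ccnd3 and Cdk6 were not tested. The part of carry-over and of the make-up in the class value was not tested.

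Astrocyte-like cells had 208, 184, 411, 274 and 306 CPM of Ccnd1 in Vehicle and 49.5, 92.0, 50.04, 41.4 and 85.4 CPM in Vismodegib. Some of these rest on few cells. The value of Vehicle tumor 3 came from 10 UMIs in 7 cells, and that of Vismodegib tumor 3 from 3 UMIs in 12 cells. The log2 fold change was -2.05 (SE 0.30, edgeR adjusted p = 0.00144), with 2.62% of 1905 genes called. Carry-over at the granule genes' percentage, 27.7% (14.5% to 41.3%) in Vehicle and 14.8% in Vismodegib, would give 209 of 277 and 40.8 of 63.7 CPM, and its part in the difference was not tested. The call was lost with a limit of 4 SD on cells (-1.46, edgeR adjusted p = 0.0504). Ccnd2 (0.06, edgeR adjusted p = 0.944) and Cdk4 (-0.19, adjusted p = 0.798) were not called in astrocyte-like cells, and Ccnd3 and Cdk6 were not tested. Microglia-like cells gave a log2 fold change of -1.06 (SE 0.33, edgeR adjusted p = 0.238), with 0.314% of 1593 genes called and no member among them. There Ccnd2 was at -0.90 (edgeR adjusted p = 0.410) and Cdk4 at -0.64 (adjusted p = 0.372).

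Between Vehicle and WT, oligodendrocyte-like cells had higher Ccnd1 (log2 fold change 1.85, edgeR adjusted p = 3.32e-05) and Ccnd2 (1.26, adjusted p = 0.00226), where 26.7% of genes were called. Cdk4 was not called there (-0.61, edgeR adjusted p = 0.0610). OPC-like cells were 152 of 241 cells of the class in WT and 274 of 417 in Vehicle, and maturing cells 89 and 9. The rest of the Vehicle cells of the class had no subtype name. Mean Ccnd1 in WT was 511 CPM in OPC-like and 47.9 in maturing cells. Within OPC-like cells Ccnd1 ran from 266 to 770 CPM in WT and from 979 to 2205 in Vehicle, and Ccnd2 from 197 to 240 and from 360 to 881, both without overlap. In astrocyte-like cells Ccnd1 was higher by 0.95 (edgeR adjusted p = 0.0180), with 22.7% of genes called. Carry-over at the granule genes' percentage would give 18.6 of 140 CPM in WT and 209 of 277 CPM in Vehicle, so that the gap between the groups is smaller than the gap in this measure, and no direction beyond it is read. That astrocyte call was lost without WT animal 3 (0.74, edgeR adjusted p = 0.0537) or Vehicle tumor 5 (0.90, 0.0632), without the filter on low counts (0.77, 0.163) and at cluster resolution 1.2 (0.33, 0.493). Ccnd2 (0.72, edgeR adjusted p = 0.0558) and Cdk4 (-0.56, adjusted p = 0.105) were not called in astrocyte-like cells. With same-numbered animals as a block, 2 members were called in these cells. In microglia-like cells 20.8% of genes were called, and neither Ccnd1 (0.17) nor Cdk4 (0.22) was among them.

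Genes around the members in the pathway were followed as lists. In CGNP-like cells under vismodegib, 3 of 5 SHH pathway genes fell. They were Hhip, a hedgehog-binding antagonist induced by the pathway (-2.67, edgeR adjusted p = 1.74e-05), the receptor Ptch1 (-1.41, 0.00101), and Mycn, a transcription factor downstream of SHH (-0.94, 0.00681). The other 2 did not pass: the transcription factor Gli1 was at -0.46 (edgeR adjusted p = 0.416) and Gli2 at 0.25. The median over all genes tested was 0.0035. The counts of these lists stand beside 12.7% of all genes called in this comparison. Downstream of the members, 1 of 7 later cyclins and kinases fell (the mitotic kinase Cdk1, -0.59, edgeR adjusted p = 0.0342), and 1 of 10 E2F targets (Tk1, a thymidine kinase, -0.89, 0.00836). None of 10 E2F factors and none of 3 pocket proteins passed. Of the CDK inhibitors, 5 of 7 could be tested and 1 fell (Cdkn1c, -0.97, edgeR adjusted p = 0.0258), and of 9 genes of D cyclin assembly and turnover none passed (median -0.01).

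Within Node B-like cells, where 3.29% of all genes were called, 4 list genes downstream of the cyclins were called, all higher under vismodegib. Ccne2, the E-type cyclin of the G1 to S step, was higher by 0.93, E2f2 by 1.26, and the E2F targets Uhrf1 and Rrm2 by 0.73 and 0.62. These were 1 of 7, 1 of 10 and 2 of 10 genes of their lists, and no other gene of the lists was called. The mix of Node B-like clusters moved with treatment, and its part in these values was not tested. A cluster with Hes1 and Atoh1 among its leading genes held 4321 of 10472 cells in Vehicle and 713 of 3107 in Vismodegib. One with Hells and Clspn among them held 270 and 352. Of the SHH pathway genes, 2 of 5 were called lower there (Hhip -1.91, Ptch1 -0.97). The median of all genes tested was 0.007.

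In Vehicle against WT CGNP-like cells 43.9% of all genes were called. There 4 of 5 SHH pathway genes were higher, among them Hhip by 4.30. So were 5 of 9 genes of D cyclin assembly and turnover, a share near that of all genes. The latter included Cryab (2.12), the F-box genes Fbxo4 (1.48) and Fbxw8 (1.39), and Ddb1 (0.87), with a list median of 0.74 beside 0.0468 over all genes. None of 10 E2F targets was called. Of 10 E2F factors 1 was called higher (E2f1, 1.39) and 1 lower (Tfdp2, -1.04), of 3 pocket proteins 1 higher (Rb1, 0.94), of 5 CDK inhibitors tested 1 higher (Cdkn2c, an inhibitor of Cdk4 and Cdk6, 1.03) and of 7 later cyclins and kinases 2 higher (Cdk2, 0.78, and Cdk1, 0.58), each share below that of all genes.

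Each member overlaps another gene on the opposite strand, and whether the counting used strand is not stated, so reads of the 2 could be mixed. LTO1, listed as Oraov1, overlaps Ccnd1 with 4510 UMIs beside 36886, and it was itself lower under vismodegib in CGNP-like cells (-0.87, edgeR adjusted p = 0.00525) and not called between Vehicle and WT (0.10, adjusted p = 0.691). Tspan31 overlaps Cdk4 with 8810 UMIs beside 53065, and was higher in Vehicle than in WT (1.16, edgeR adjusted p = 0.00161). Bysl overlaps Ccnd3 with 1453 UMIs beside 3269 and was called in neither comparison (-0.01 and 0.21). The antisense genes 9330179D12Rik at Ccnd2 and Gm17590 at Cdk6 had 226 and 14 UMIs.

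Across 32 combinations of class and group, the genes whose log2 level correlated best with each member among 10142 genes were listed as a description, the combinations sharing animals and libraries. For Ccnd2 they were Supt16 and Insm1 (Pearson r = 0.90 each), Mcm7 (0.89), Suv39h2 and Cecr2 (0.88 each). For Cdk4 they were Actl6a (0.92), Srsf6 (0.91), Rbbp4, Hmgn1 and Trim59 (0.88 each). For Cdk6 they were Sfrp1 (0.90), A930019D19Rik (0.87), Otx1 and Shisa2 (0.84 each). For Ccnd3 they were Tmem134 (0.82), Nr3c1 (0.80), Pdlim5 and Ssr3 (0.79 each). Ccnd1 had no gene above 0.77, with Mphosph10 (0.77), Cep68 (0.76), Nin (0.73), Prkd3 and Ubxn1 (0.72 each). Among the members, Ccnd2 and Cdk4 were the most alike pair (r = 0.84), followed by Ccnd2 and Cdk6 (0.66), while Ccnd1 and Ccnd2 gave 0.33 and Ccnd2 and Ccnd3 gave 0.07.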

How the data were processed

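Raw UMI counts per gene and barcode, deposited by the authors without normalization, were used for all 15 animals. To make them, the authors used Drop-seq Tools and STAR (the submitters' processing notes give STAR 5.4b, bcl2fastq 2.18, Seurat 2.3.0 and the builds mm10 and hg19), and kept tumor barcodes with over 90% mouse reads against spiked-in human cells. The sources used here do not name the annotation they counted on. Groups came from the labels. Library totals were 2310474 to 5952919 UMIs in WT, 4307404 to 17708677 in Vehicle and 2601001 to 10922460 in Vismodegib. Any pair of the 105 pairs of tables shared at most 13 barcodes.

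Barcodes with at least 500 UMIs and 500 genes were kept, and those over the animal's median by 5 SD in UMIs, genes or mitochondrial share were removed, the one step taken against doublets. Of 36841 tumor and 15000 WT barcodes, 30722 and 7224 were kept. Tumor and WT cells were clustered separately after the study's settings (resolution 0.8, 16 and 14 clusters). Held out of clustering and naming were 57 genes (the members, other cell cycle genes and SHH pathway genes). Node-like classes are therefore reconstructions and may differ from the study's nodes. Unnamed clusters (643 Vehicle, 653 Vismodegib and 641 WT cells) stayed outside the classes. The WT cells formed a single cluster with hemoglobin genes, Cks2 and Hist1h2ab among its leading genes, nearest to Node A-like cells by marker fold. Its Ccnd1 was at 462 ± 59.6 CPM, above the mean of any named WT class. Classes in which a cluster carried more markers of another class than its own were not compared between groups.

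Counts were summed per animal and class (at least 5 cells) and tested with edgeR 4.0.16 in R 4.3.3 (quasi-likelihood, TMM, filterByExpr), with Benjamini-Hochberg adjustment over all genes tested. A gene was called at an adjusted p under 0.05. The fit was tested on simulated data. DESeq2 1.42.0 was an alternative. Single values were compared by 2-sided exact permutation over animals, unadjusted. Likeness was measured on log2(mean CPM + 10) for genes reaching 50 CPM in any of the combinations with at least 3 animals. Other settings were RLE normalization, no filter, the replicate block, a 4 SD limit, resolutions 0.6 and 1.2, serial number, sets of tumors, thinning to 1000 UMIs or none, and leaving out each animal. The serial number entered the fit as lower or higher, split as in the results, and not as a numeric value. The sets of tumors were a separate grouping with a fit of its own. Naming the unnamed clusters by marker fold, leaving out Vismodegib tumor 3 as the smallest library and values within the lower and higher serial numbers were chosen after seeing the data. Python 3.11.15 with numpy 2.4.6, scipy 1.17.1, scikit-learn 1.9.0 and igraph 0.11.9 was used. Gene positions are from GENCODE M21 and promoters from RefSeq.

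All 5 members are named in the granule lineage and those tested in other classes, up to 4 called genes per pathway list by size in CGNP-like cells, and the 5 most alike genes per member. Genes called in Node B-like cells were named after their values were seen. Members and lists were chosen with earlier results of these data known. The labels do not say whether replicates came from separate litters or runs, so p-values measure the spread between these animals. A gene of the SHH list and 2 entries among the genes most like a member are not reported here, and list counts leave them out.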

Additional observations from a re-analysis of the deposited data

Results flagged for a closer look

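Cdk4 in Node B-like cells was measured at 1316 CPM in Vismodegib tumor 4, and the nearest of the other 4 treated tumors was at 882. The gap is 0.771 of the range of the group, over the limit of 0.71 for 5 samples. It was 1 of 87 groups of 5 examined, where chance at 1 in 20 gives 4.35. The vismodegib difference in Node C-like cells was apart from that in Node A-like cells by a log2 of -0.88 for Ccnd1 and -0.50 for Ccnd2 in a test of the difference itself (edgeR adjusted p = 0.000499 and 0.000731). For Node D-like cells the same test gave -1.03 for Ccnd1 and -0.58 for Ccnd2 (edgeR adjusted p = 0.00150 and 0.0168).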

How the results depend on the processing

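No called member turned its direction under any setting run. Of the members' fold changes, 68 of 69 kept direction and side of the threshold under RLE normalization, 61 of 69 without the filter on low counts, 65 of 69 in DESeq2, 36 of 38 with the serial number and 32 of 38 with the sets of tumors as a covariate, 60 of 65 at a limit of 4 SD, 77 of 79 and 72 of 78 at resolutions 0.6 and 1.2, and 42 of 44 with the unnamed clusters named. The setting that left out the smallest tumor library is among the leave-outs, of which 780 of 840 were the same.

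Members called in Node A-like cells under vismodegib went from 1 to 2 without the filter (adding Ccnd2) and with the sets (Cdk6). In Node B-like cells they went from 2 to 4 in DESeq2 and with the sets (Ccnd2 and Cdk6), and to 3 with the serial number (Ccnd2). In Node C-like cells they went from 1 to 2 (Cdk6) without the filter, in DESeq2, with the replicate block, the serial number and the sets. They went from 1 to 0 in Node D-like cells at 4 SD, where Ccnd1 was not tested, and in astrocyte-like cells at 4 SD and at resolution 1.2, where it was not tested, and from 1 to 3 in oligodendrocyte-like cells without the filter. Against WT they went from 1 to 3 in Node C-like cells without the filter, from 1 to 0 in Node D-like cells at 4 SD and to 2 at resolutions 0.6 and 1.2, and from 1 to 2 in astrocyte-like cells with the replicate block.

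Whether same-numbered tumors were paired is not given: they carry adjacent serial numbers and the methods name littermates, without saying which. The correlation of their deviations ran from -0.171 to 0.386 between Vehicle and Vismodegib, over 0.1 in 3 of 5 pairs, which misses the bar of every pair, and from -0.152 to -0.0073 between Vehicle and WT. With the block 66 of 69 fold changes were the same. In CGNP-like cells under vismodegib it gave -1.37 for Ccnd1. Paired differences could not go under p = 0.0625 (exact, 5 pairs), which the fixed make-up values of Ccnd1 (-319 CPM) and Ccnd3 (17.6) and the thinned shares of Ccnd1 (-15.5 and 15.6 percentage points), Ccnd2 (7.39, Vehicle minus WT), Ccnd3 (1.40) and Cdk6 (-3.74 and 6.19) reached. Ccnd2 (597 CPM) and Cdk6 (-53.1) at the fixed make-up did not reach it. The thinned Ccnd2 difference of Vehicle from WT passed at 4 SD (9.46, exact permutation p = 0.0397) and without thinning (14.7, p = 0.00794).

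Signs turned in these uncalled values. For Ccnd2 they were -0.0335 (all kept cells, sets), -0.0331 (Node C-like, 4 SD), 0.0677 and 0.162 (Node D-like, no filter and 4 SD), -0.0384 (astrocyte-like, sets) and 0.0098 (Node A-like against WT, no filter). For Cdk4 they were -0.065 (Node C-like, 4 SD), 0.0538 (Node B-like against WT, no filter), and in Node C-like cells against WT -0.0106 (RLE and DESeq2), -0.0093 (replicate block), -0.0151 (4 SD), -0.0194 (resolution 1.2) and -0.0667 (unnamed clusters named). In Node B- against Node A-like cells they were -0.0049 for Ccnd1 (resolution 0.6) and 0.0387 and 0.0062 for Cdk4 (resolution 1.2, unnamed clusters named).

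With 1 animal left out, members called under vismodegib ran from 1 to 3 in Node B-like, 0 to 1 in Node D-like (0 without Vehicle 5 or Vismodegib 4) and 1 to 2 in oligodendrocyte-like cells. Against WT they ran from 1 to 2 in Node C- and D-like, 0 to 2 in astrocyte-like (0 without Vehicle 5) and 0 to 1 in microglia-like cells (1 without Vehicle 1 or 5), and over the node contrasts from 2 to 4 (2 without Vehicle 5). Differences at the fixed make-up ran from 15.5 to 21.6 CPM for Ccnd3. Thinned shares of Vismodegib minus Vehicle ran from -4.77 to 0.162 percentage points for Ccnd2, -0.132 to 0.207 for Ccnd3 and -6.56 to -2.85 for Cdk4, and those of Vehicle minus WT from 5.88 to 9.39 for Ccnd2 and 3.26 to 6.97 for Cdk4. Uncalled fold changes that turned sign ran, for Ccnd2, from -0.0914 to 0.138 (all kept cells), -0.118 to 0.0932 (Node D-like), -0.128 to 0.201 (astrocyte-like) and -0.0224 to 0.0857 (Node B- against A-like). For Ccnd3 they ran from -0.0159 to 0.181 (all kept cells), -0.0187 to 0.245 (Node C-like) and -0.157 to 0.239 (Node D- against A-like). For Cdk4 they ran from -0.0491 to 0.187 (Node C-like), -0.118 to 0.128 (Node C-like against WT), -0.0353 to 0.0402 (Node B- against A-like) and -0.043 to 0.138 (Node D- against A-like). Those of Cdk6 ran from -0.106 to 0.0625 (Node B- against A-like) and -0.324 to 0.122 (Node D- against A-like), and that of Ccnd1 in microglia-like cells against WT from -0.0566 to 0.342.

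Genes called moved by over 1.5 times under some setting in the vismodegib fits of Node A-like (181, 179 to 378), B-like (351, 296 to 699), C-like (50, 37 to 185), D-like (3, 1 to 47), astrocyte-like (50, 1 to 107), oligodendrocyte-like (142, 91 to 293) and microglia-like cells (5, 2 to 48). Against WT they did so in Node A-like (2903, 2591 to 4627), B-like (3287, 2425 to 5272), C-like (2385, 2083 to 3854), D-like (1393, 765 to 1985), astrocyte-like (541, 461 to 1017), oligodendrocyte-like (643, 555 to 1295) and microglia-like cells (174, 135 to 276), and in Node B- against Node A-like cells (49, 58 to 210). The causes were not tested. Depth limits Ccnd3 in the WT nodes, with 14 UMIs each in Node C- and D-like cells, and Cdk6 in OPC-like cells, with no UMI in 50 Vismodegib cells.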
